A study of Mus musculus with 9 samples.

Results

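The comparison set 3 libraries of Zfp352-KO mouse embryonic stem cells against 3 libraries of Parental cells. The 6 libraries were chosen by the genotype in their labels, out of 9 in the series, and all genes of their tables were read. Both groups are EB5 cells, a line derived from the male E14tg2a line of the 129Ola strain, which carries an Oct3/4 allele with an IRES-BSD-pA insertion. Parental cells had neither gene of the study deleted, and in Zfp352-KO cells Zfp352 alone had been deleted with CRISPR-Cas9, a guided nuclease. Both were grown in GMEM with fetal calf serum and leukemia inhibitory factor (LIF) on gelatin, and no treatment was given. The other 3 libraries, of Zfp352/Zfp353-DKO cells, in which both genes were deleted, entered the fit only to share its estimate of the spread. The labels do not say whether the libraries of a genotype came from separate clones or cultures, and every p-value here therefore reflects the spread among the libraries alone, which may be technical.

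Zfp352 encodes a zinc finger protein best known for its transcription at the 2-cell stage of the mouse embryo. Stem cells in serum and LIF are a mixed population: most cells hold the pluripotency network, some start transcripts of the primitive streak or of epithelia, and a few pass through a state in which 2-cell-stage genes such as the Zscan4 and Tdpoz families are on. Contractile, matricellular and collagen genes are known targets of serum response factor (SRF), of the YAP and TEAD proteins and of transforming growth factor signalling in adherent cells. In bulk RNA, fewer cells of a type and less RNA per cell cannot be told apart, which holds for every group of genes below.

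Values are TPM, the share of a gene's transcripts in a library corrected for transcript length, given for libraries 1, 2 and 3 of a genotype in that order. Fold changes are on the log2 scale, Zfp352-KO over Parental. The standard error after ± was derived from edgeR's quasi-likelihood test, as the absolute fold change over the square root of the F statistic. A gene was called, and is said to have risen or fallen, at a Benjamini-Hochberg adjusted p under 0.05 over the 14300 genes tested. The libraries held 16599004 to 22044820 expected counts each.

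The targeted gene was lower in each edited library. Zfp352 (chromosome 4, 90218820 to 90225687, GRCm38) stood at 1.78, 2.05 and 1.76 TPM in Parental and at 0.16, 0.31 and 0.41 TPM in Zfp352-KO cells. The groups did not overlap, and the log2 fold change was -2.65 ± 0.32 (adjusted p = 6.1e-05). With log2(TPM + 0.1) values, p was 0.1 in a permutation test, exact and two-sided, which is the smallest that 3 against 3 libraries can give. The 3, 8 and 10 counts left in the edited libraries do not show which part of the transcript they come from, since the tables hold 1 value per gene.

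The embryonic stem cell label was met by the marker genes. The summed TPM of 8 stem cell markers (Pou5f1, Sox2, Nanog, Zfp42, Esrrb, Dppa5a, Tdgf1 and Utf1) was 7638 to 7767 in Parental and 7590 to 7721 in Zfp352-KO cells, and none of the 8 was called. Markers of other cells were also present and in part moved with the genotype. Those of fibroblast-type cells summed to 28.6 to 33.4 TPM in Parental and 17.6 to 19.8 TPM in Zfp352-KO cells, 3 of 8 tested having fallen, with Lum at 0 and Dcn, Postn and Prrx1 under 1 TPM in all 6 libraries. Trophectoderm markers, for the most part Krt8 and Krt18, summed to 318 to 356 and 240 to 244 TPM, with 4 of 7 having fallen and Elf5 under 1 TPM. Mesoderm markers summed to 5.2 to 8.47 and 2.14 to 3.46 TPM (1 of 4 lower), while neural markers (153 to 159 and 146 to 155 TPM, 1 of 5 lower) and primitive endoderm markers (4.5 to 5.55 and 4.08 to 5.55 TPM, none of 7 called) overlapped between the groups. The part of other cell types in the results below was not tested.

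Across all 14300 genes tested, 490 were called higher (3.43%) and 520 lower (3.64%) in Zfp352-KO cells, 7.06% in either direction, and most changes were small. Of the genes that rose, 210 rose by less than 0.25 and 11 by at least 1, and of those that fell, 130 fell by less than 0.25 and 33 by at least 1. Values also went with transcript length, and not alike in the 6 libraries. Parental libraries 1 and 2 had higher values for short transcripts and Zfp352-KO libraries 1 and 2 for long ones, as described in full after the gene groups. A second fit, which removed that trend in each library, called 449 genes higher (3.14%) and 379 lower (2.65%). Of the first calls, 289 of the 490 rises (59.0%) and 325 of the 520 falls (62.5%) were shared, and no call turned around. Without Parental library 2 and Zfp352-KO library 1, the libraries of the steepest trend, 41 genes rose (0.284%) and 148 fell (1.03%). That fit also had fewer libraries of both genotypes, and the part of this in the lower counts was not tested.

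Single libraries weighed on these counts. The number of rises was 50 without Parental library 1, 138 without Parental library 2, 78 without Zfp352-KO library 1 and 150 without Zfp352-KO library 2, and it was 838 without either Zfp352-KO library 3 or Zfp352/Zfp353-DKO library 3. The number of falls was 160 and 244 without Parental libraries 1 and 2, and 199 and 220 without Zfp352-KO libraries 1 and 2. Rises of at least 1 numbered 1, 4, 2 and 1 without those same 4 libraries, and 5 without Zfp352/Zfp353-DKO library 2. In all 9 omissions of 1 library, 47 rises and 140 falls kept their call. Genes named below as having risen or fallen kept it in all 9 and with the length trend removed, unless another value is given. For each gene list, the lowest count over the 9 omissions is given, which came without Parental library 1, alone or level with other libraries, unless said otherwise. The counts of each list stand beside the shares over all tested genes, 3.43% called higher and 3.64% called lower. The lists were chosen with earlier results of these data known.

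Some of the steepest falls were in genes of the early embryo on chromosome 3. Tdpoz4, a member of a family with TD and POZ domains, went from 5.89, 4.5 and 5.31 TPM in Parental to 0.11, 0.36 and 0.41 TPM in Zfp352-KO cells, a log2 fold change of -4.11 ± 0.37 (adjusted p = 2.2e-06). Gm4858, which RefSeq names Tdpoz8, had 2.12, 2.23 and 1.95 TPM in Parental and 0.42, 0.53 and 0.15 TPM in Zfp352-KO cells (-2.51 ± 0.32, adjusted p = 0.00016). Gm10696 had 28, 31 and 42 counts in Parental and 2, 0 and 0 counts in Zfp352-KO cells, a ratio of 48.3 per library total with a 95% exact interval of 13 to 404, which covers counting error only. In all 3 genes every edited library lay below every Parental one. Gm4858 and Gm10696 carry predicted-gene names, which the rule for named genes leaves out, and were chosen after their values were seen.

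Other members of the family gave less clear values. Tdpoz3, the next copy beyond Tdpoz4, had 2.51, 2.36 and 2.38 TPM in Parental and 2.79, 2.06 and 1.5 TPM in Zfp352-KO cells, groups that overlap (log2 fold change -0.26 ± 0.29, adjusted p = 0.63). Tdpoz5 had 4.97, 4.88 and 5 counts in Parental cells and was listed at 0 in all 3 Zfp352-KO libraries. Tdpoz2 had 5, 3 and 7 counts in Parental cells and was likewise listed at 0 in Zfp352-KO cells, and neither was tested, at these depths. Reads that fit several copies are divided among them by the counting, so the values of single members are uncertain.

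The stretch of DNA before the start of Tdpoz4 shows how alike the copies are. It is printed with that before the second RefSeq start of Gm4858, both on the + strand of GRCm38.p6 and both from RefSeq (chr3:93796148-93796397 and chr3:93073271-93073520). Capitals mark the longest stretch that the windows share, of 130 bases. Over the 300-base windows, 284 of 293 aligned bases (96.9%) were identical.
Tdpoz4: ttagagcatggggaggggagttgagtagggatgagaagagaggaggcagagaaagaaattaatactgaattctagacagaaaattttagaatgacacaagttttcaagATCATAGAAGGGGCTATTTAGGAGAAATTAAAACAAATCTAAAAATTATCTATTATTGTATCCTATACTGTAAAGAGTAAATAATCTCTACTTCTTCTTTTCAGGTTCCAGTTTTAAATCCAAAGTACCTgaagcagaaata
Gm4858, second start: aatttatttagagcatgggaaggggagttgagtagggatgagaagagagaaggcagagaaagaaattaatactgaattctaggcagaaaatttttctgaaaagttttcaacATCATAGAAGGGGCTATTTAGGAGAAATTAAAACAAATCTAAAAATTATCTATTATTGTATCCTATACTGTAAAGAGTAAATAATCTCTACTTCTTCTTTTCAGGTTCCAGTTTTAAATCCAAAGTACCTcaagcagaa

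A short string was shared by the windows of Zfp352, Gm10696 and the first start of Gm4858. These windows are shown because all 3 genes were called lower, Zfp352 being the deleted gene itself. They lie at chr4:90218570-90218819 (+ strand), chr3:94178194-94178443 (- strand) and chr3:93068573-93068822 (+ strand), each the 250 bases before a RefSeq start in GRCm38.p6. Capitals mark ACACACCTTTAATCC, the longest string with 3 copies in the Zfp352 window that the others hold too, searched on both strands. It was looked for after these sequences had been seen, and it occurred 3 times in the Zfp352 window, which holds further near copies of it, and once in each of the others.
Zfp352: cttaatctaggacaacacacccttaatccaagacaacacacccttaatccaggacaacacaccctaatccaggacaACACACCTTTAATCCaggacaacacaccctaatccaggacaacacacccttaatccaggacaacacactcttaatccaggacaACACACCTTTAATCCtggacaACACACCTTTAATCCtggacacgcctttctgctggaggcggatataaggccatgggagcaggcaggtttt
Gm10696: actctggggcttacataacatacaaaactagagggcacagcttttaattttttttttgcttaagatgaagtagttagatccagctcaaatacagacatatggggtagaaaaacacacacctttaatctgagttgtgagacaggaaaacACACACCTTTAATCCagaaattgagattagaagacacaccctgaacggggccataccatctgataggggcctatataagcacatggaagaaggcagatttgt
Gm4858, first start: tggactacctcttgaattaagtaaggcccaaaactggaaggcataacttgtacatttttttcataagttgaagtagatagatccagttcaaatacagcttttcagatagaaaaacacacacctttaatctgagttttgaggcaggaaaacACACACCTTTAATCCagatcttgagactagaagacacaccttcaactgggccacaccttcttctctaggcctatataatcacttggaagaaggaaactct

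Of all 32851 RefSeq windows (250 bases before to 50 after a start), 15 (0.0457%) held the string on either strand. Among the 14399 windows of tested genes, 5 held it (0.0347%), of which 4 belonged to genes that fell (0.726% of their 551 windows) and none to genes that rose. The genes that fell were Gm10696, Gm4858, Gm8994 and Zfp352, the last of which was the deleted gene. The match is a description of these letters, and since the string was taken from windows of genes that fell, their share carries no weight of its own.

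**Figure D1:**
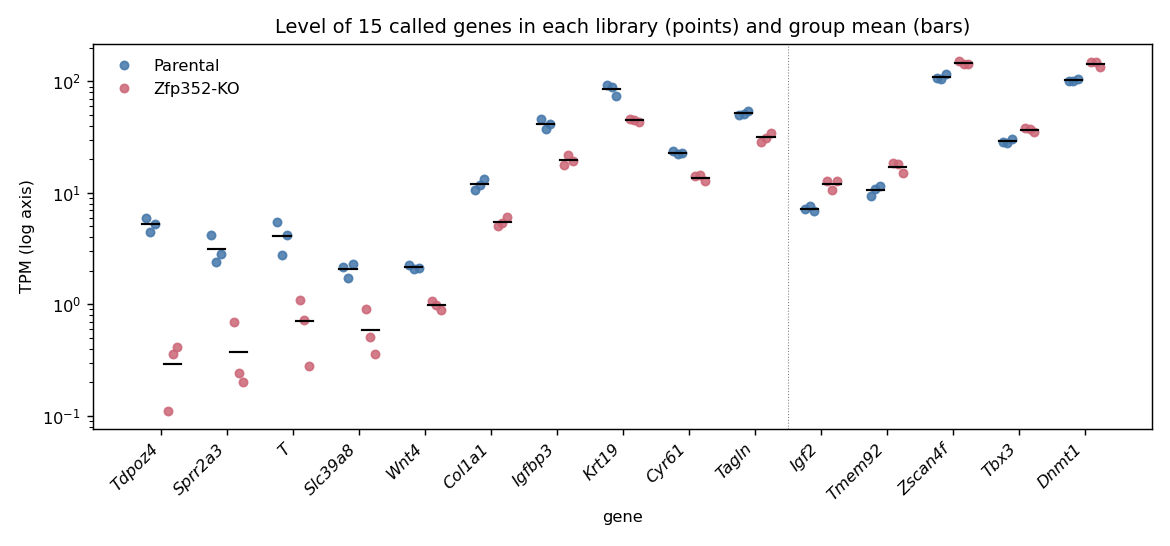
Level of 15 called genes in TPM on a log axis, with a point for each library and a black bar at the mean of a group of 3, Parental in blue and Zfp352-KO in red. The 10 genes left of the dotted line fell and the 5 to its right rose, and in each gene the points of the groups do not overlap, with Tdpoz4 at 5.89, 4.5 and 5.31 against 0.11, 0.36 and 0.41 TPM.

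Other 2-cell-stage genes moved both ways. Of 22 tested members of that list, 5 rose and 4 fell, and all 9 kept their call in every omission. Among the falls, B020031M17Rik went from 9.94, 8.52 and 9.26 to 3.09, 3.57 and 3.19 TPM (-1.53 ± 0.18), and Tcstv3, a transcript of the same stage, from 15, 13.64 and 12 to 6.43, 7.31 and 4.98 TPM (-1.17 ± 0.16). Tcstv1, of the same family, went the other way. Its log2 fold change was 1.09, not called, and 1.21 with the length trend removed, where it was called higher. How reads were divided between Tcstv1 and Tcstv3 was not tested. Sp110, a nuclear body gene, went from 6.29, 6.22 and 7.19 to 4.79, 3.98 and 3.74 TPM (-0.71 ± 0.13). The rises were in the Zscan4 genes, zinc finger genes known for telomere maintenance in stem cells, and in Tmem92.

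Zscan4f, the most abundant of the Zscan4 genes, had 108.24, 106.24 and 116.98 TPM in Parental and 151.11, 144.15 and 142.51 TPM in Zfp352-KO cells (0.36 ± 0.05, adjusted p = 0.00012). Zscan4a rose by 0.34, Zscan4b by 0.45 and Zscan4c by 0.36, while Zscan4d (0.19 ± 0.09, adjusted p = 0.2) was not called. The tested Zscan4 genes lie together on chromosome 7 (10794241 to 11402318). As in the Tdpoz family, reads that fit several copies are divided among them, so these rises may not be separate. Tmem92, a membrane protein gene, had 9.34, 10.81 and 11.61 TPM in Parental and 18.37, 17.99 and 15.16 TPM in Zfp352-KO cells (0.65 ± 0.09). These rises were also seen with the length trend removed, where the list had 7 rises and 4 falls. On chromosome 10, Gm4302, chosen after its value was seen, rose from 2.16, 3.03 and 2.63 to 8.56, 8.44 and 6.47 TPM (1.53 ± 0.21), while its neighbours Gm4303, Gm4305 and Gm4307 had equal values to each other and were not called (-0.60 ± 0.27, adjusted p = 0.19). Gm4301 and Gm4312, also equal to each other, rose by 0.58 (adjusted p = 0.045) and lost the call in 7 of 9 omissions.

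Some genes of the primitive streak and of WNT signalling, the pathway by which secreted WNT proteins stabilise beta-catenin and open TCF and LEF targets, fell in Zfp352-KO cells, 4 of 9 and 8 of 23 tested. T and Cdx2 are in both of these lists. Other lists share members as well, so counts of different lists are not separate results. T, the streak transcription factor Brachyury, had 5.43, 2.76 and 4.23 TPM in Parental and 1.1, 0.73 and 0.28 TPM in Zfp352-KO cells (-2.65 ± 0.31, adjusted p = 4.6e-05). All edited libraries lay below the lowest Parental one. Of 9 tested streak and mesoderm genes 4 fell and none rose, with a median of -0.70 beside -0.01 over all genes. Hand1, a mesoderm and trophoblast factor, went from 8, 9.22 and 9.83 to 5.08, 6.1 and 5.85 TPM (-0.70 ± 0.12). Mixl1 (-0.73 ± 0.37, adjusted p = 0.24) and Eomes (-0.28 ± 0.15, adjusted p = 0.26) were not called. Cdx2 (-1.27 ± 0.25) lost its call without Parental library 1 (adjusted p = 0.054), and Wnt3 (-1.16 ± 0.28) without Parental library 1 (0.15) or Zfp352-KO library 2 (0.082), so that 2 streak genes were left without Parental library 1.

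In the WNT list, 8 of 23 fell and 1 rose, with a median of -0.34, and Wnt3a (0.43 ± 0.44, adjusted p = 0.6) and Rnf43 (0.78 ± 0.43, adjusted p = 0.29) were among those not called. Among ligands, Wnt4 went from 2.23, 2.09 and 2.1 to 1.07, 0.99 and 0.89 TPM (-1.17 ± 0.19). Among targets, Sp5, which encodes a repressor in a feedback loop of the pathway, went from 1.93, 1.24 and 1.9 to 0.73, 0.5 and 0.58 TPM (-1.54 ± 0.28), and Wisp1, which encodes a matricellular protein, from 1.96, 2.13 and 2.2 to 1.02, 1.06 and 0.99 TPM (-1.08 ± 0.14). The receptor gene Fzd5 was the rise (0.23 ± 0.05, adjusted p = 0.018), a transcript of 6886 bases whose call was lost with the length trend removed (adjusted p = 0.065). Without Parental library 1, 4 of these genes fell (Wnt4, Sp5, Wisp1 and T). The secreted inhibitor gene Notum was at 34.24, 34.86 and 37.82 and at 32.69, 33.2 and 34.41 TPM and was not called (-0.13 ± 0.07, adjusted p = 0.27).

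Among contractile and actin-binding genes, 13 of 24 fell (54.2%, beside 3.64% of all tested genes) and none rose (median -0.29). The falls were of modest size, and 11 genes fell with the length trend removed. Tagln, which encodes the actin-binding protein transgelin, went from 49.48, 51 and 54.85 to 28.67, 31.34 and 34.39 TPM (-0.76 ± 0.07, adjusted p = 4.4e-06). Cnn1, the calponin of smooth muscle, went from 4.81, 4.42 and 3.73 to 1.61, 2.2 and 2.41 TPM (-1.09 ± 0.18), and Tpm1, a tropomyosin, from 218.1, 203.3 and 202.46 to 150.29, 153 and 156.41 TPM (-0.49 ± 0.05). The focal adhesion genes Zyx (-0.44 ± 0.07), Csrp1 (-0.44 ± 0.05) and Pdlim7 (-0.40 ± 0.06) fell as well. Actb, the abundant cytoplasmic actin, did not pass the test, with 1690.72, 1824.98 and 1693.56 against 1697.89, 1735.39 and 1665.56 TPM. Without Parental library 1, 9 members fell.

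The list of YAP, SRF and matricellular genes had 8 falls and no rise among 19 (median -0.37), and 10 falls and 1 rise with the length trend removed. Cyr61, a secreted matricellular protein and a classical target of YAP, went from 23.56, 22.16 and 22.71 to 14.05, 14.37 and 12.68 TPM (-0.78 ± 0.08, adjusted p = 7.4e-06). Ctgf, its relative, went from 24.33, 22.57 and 25.55 to 17.39, 19.95 and 17.4 TPM (-0.44 ± 0.08). Thbs1, thrombospondin, went from 17, 16.88 and 19.88 to 12.06, 11.91 and 11.07 TPM (-0.66 ± 0.06), and the chaperone gene Cryab from 12.88, 13.07 and 16.45 to 6.87, 8.34 and 8.51 TPM (-0.87 ± 0.14). For these 4 genes the groups were well apart. Srf itself (-0.18 ± 0.06, adjusted p = 0.09) and Vcl, vinculin (0.04 ± 0.05, adjusted p = 0.69), were not called, and 5 members fell without Parental library 1.

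SRF and TEAD proteins bind known letters: the CArG box, 2 C and 2 G around 6 A or T, and GGAATG. The promoters below were picked from genes that fell because they hold a match, and Fhl2 is in neither list above. Of the contractile genes called lower in the first fit, Cnn2, Myl6 and Myl9 held a CArG box. Myl6 was not called with the length trend removed. None of the YAP, SRF and matricellular genes called lower held one. Members not named here held no CArG box or had no window. Windows of the 250 bases before a RefSeq start in GRCm38.p6 follow, with the match in capitals. Fhl2, a LIM protein gene, lies at chr1:43196762-43197011 (- strand) and Myl9, a myosin light chain, at chr2:156775214-156775463 (+ strand), each with 1 CArG box. Cyr61 (RefSeq Ccn1) lies at chr3:145649986-145650235 (- strand), with 1 GGAATG on the opposite strand.
Fhl2: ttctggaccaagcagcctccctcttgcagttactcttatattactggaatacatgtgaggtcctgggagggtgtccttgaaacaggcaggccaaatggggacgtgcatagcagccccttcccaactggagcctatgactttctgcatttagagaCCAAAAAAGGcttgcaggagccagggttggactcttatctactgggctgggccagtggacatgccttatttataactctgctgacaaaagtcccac
Myl9: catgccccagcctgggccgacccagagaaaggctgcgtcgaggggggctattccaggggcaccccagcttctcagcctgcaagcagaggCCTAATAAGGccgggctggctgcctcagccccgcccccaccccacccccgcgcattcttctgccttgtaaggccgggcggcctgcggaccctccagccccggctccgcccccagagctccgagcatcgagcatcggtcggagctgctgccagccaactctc
Cyr61: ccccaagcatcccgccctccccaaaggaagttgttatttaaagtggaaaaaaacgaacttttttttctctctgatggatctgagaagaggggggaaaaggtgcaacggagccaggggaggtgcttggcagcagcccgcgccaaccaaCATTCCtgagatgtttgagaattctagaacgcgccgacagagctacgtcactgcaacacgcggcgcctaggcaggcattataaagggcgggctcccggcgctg

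Fhl2 went from 4.11, 3.01 and 2.96 to 1.7, 1.63 and 1.76 TPM (-1.07 ± 0.22, adjusted p = 0.0073; 0.075 without Parental library 1). Myl9 went from 5.51, 6.58 and 5.77 to 3.85, 2.84 and 3.94 TPM (-0.80 ± 0.19, adjusted p = 0.021) and kept its call in 5 of 9 omissions, with adjusted p up to 0.11. Over windows of 300 bases, searched on both strands, a CArG box was found in 17 of 551 windows of genes that fell (3.09%), 8 of 480 of genes that rose (1.67%), 1.22% of those of all tested genes and 1.63% of all 32851 windows. GGAATG was found in 15.2%, 13.3%, 12.3% and 14.7% of the same sets. ATCAAAG, which TCF and LEF proteins are known to bind, was found in 1.81%, 2.29%, 2.51% and 3.73%, and TATAAA, the letters of the TATA box, in 10.7%, 9.17%, 7.33% and 13.6%. These are shares of letters in a window and say nothing of binding.

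Some collagens and secreted proteins of the matrix also fell, though most of the list did not pass the test. Col1a1, the main chain of fibrillar collagen, went from 10.69, 11.85 and 13.27 to 5.09, 5.41 and 6.08 TPM (-1.15 ± 0.09, adjusted p = 4.8e-07), and Col1a2, its partner chain, from 5.77, 5.99 and 7.11 to 4.17, 3.92 and 4.3 TPM (-0.65 ± 0.09). Col5a1 fell by 0.49 on the log2 scale, the collagen chaperone gene Serpinh1 by 0.35 and Sparc, which encodes a collagen-binding glycoprotein, by 0.32. Of 26 collagens and processing enzymes, 7 fell and 1 rose (median -0.21), and 5 fell without Parental library 1. The rise was Fn1, fibronectin, a transcript of 8281 bases at 255.3, 240.62 and 290.14 against 349.62, 315.98 and 276.95 TPM (0.22 ± 0.06, adjusted p = 0.045). Its groups overlap, and it was not called with the length trend removed (0.10, adjusted p = 0.12).

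Basement membrane genes split by member. Of the collagen IV chains, Col4a1 fell from 22.07, 20.49 and 25.93 to 19.11, 14.47 and 16.67 TPM (-0.50 ± 0.08) and Col4a2 alongside it (-0.53 ± 0.09), while Col4a5 (-0.62 ± 0.24, adjusted p = 0.12) was not called. The integrin gene Itga3 fell as well (-0.35 ± 0.05). Nid1 (0.22 ± 0.05) and Nid2 (0.18 ± 0.05), the nidogens that link laminin to collagen IV, rose, with adjusted p of 0.031 for both when the length trend was removed and kept calls in 5 of 9 omissions each. Hspg2, perlecan, a transcript of 14177 bases, rose (0.31 ± 0.08, adjusted p = 0.023) and was not called with the trend removed (0.12, adjusted p = 0.11). In all, 5 of 24 fell and 3 rose, and without Parental library 1 these were 4 and none. Of 20 proteases and inhibitors 4 fell, Prss23 alone in every omission (-0.82 ± 0.11), and 1 fell without Parental library 1.

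Epithelial genes fell in part as well. Of 21 keratin and junction genes, 12 fell and none rose (median -0.30), 11 fell with the length trend removed, and 7 fell without Parental library 1. Krt19, a keratin of simple epithelia, went from 92.71, 89.6 and 73.34 to 46.19, 45.27 and 43.28 TPM (-0.97 ± 0.08, adjusted p = 1.6e-06). Krt8 went from 149.59, 137.16 and 130.36 to 82.06, 88.79 and 79.27 TPM (-0.78 ± 0.07) and Krt18, its partner, from 131.05, 121.28 and 108.06 to 81.43, 84.32 and 85.68 TPM (-0.57 ± 0.07). The tight junction genes Cldn6 (-0.37 ± 0.06) and Cldn7 (-0.57 ± 0.10) fell as well. Krt7, another simple keratin (0.09 ± 0.12, adjusted p = 0.71), and Cdh1, E-cadherin (-0.03 ± 0.05, adjusted p = 0.73), were not called.

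Sprr2a3, the gene of a small proline-rich epithelial protein, dropped further, from 4.23, 2.4 and 2.85 to 0.69, 0.24 and 0.2 TPM (-3.12 ± 0.46). Its near copies Sprr2a1 and Sprr2a2 had the same values as each other in every library and averaged 1.27 TPM in Parental and 0.0867 TPM in Zfp352-KO cells. Sfn, stratifin, an adaptor protein of epithelia, went from 103.64, 98.77 and 105.6 to 62.42, 68.1 and 63.59 TPM (-0.71 ± 0.06, adjusted p = 4.8e-07). Among mesenchymal genes, Vim, vimentin, fell (-0.32 ± 0.05) and Zeb1, a repressor of epithelial genes, rose from 3.15, 3.43 and 3.34 to 4.79, 4.46 and 5.1 TPM (0.49 ± 0.09). That list had 3 rises and 2 falls among 14, of which 1 rise and 1 fall were left without Parental library 1.

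S100 and annexin genes, which encode small calcium-binding proteins and their membrane-binding partners, had 9 falls and no rise among 17 (median -0.34; with the length trend removed 7 falls, median -0.20). Anxa2 went from 79.05, 69.55 and 69.66 to 42.93, 36.71 and 59.28 TPM (-0.70 ± 0.12), with Zfp352-KO library 3 the nearest to the Parental ones. Anxa3 went from 21.51, 20.05 and 18.79 to 10.29, 11.79 and 11.52 TPM (-0.89 ± 0.10, adjusted p = 2.4e-05). S100a6 went from 113.97, 112.53 and 99.83 to 68.47, 68.52 and 76.17 TPM (-0.66 ± 0.08), and S100a10, which pairs with Anxa2, fell by 0.34 on the log2 scale. The window before the Anxa2 start (chr9:69453433-69453682, + strand, RefSeq, GRCm38.p6) is shown for its match, in capitals, to TGANTCA, the letters that FOS and JUN dimers (AP-1) are known to bind.
Anxa2: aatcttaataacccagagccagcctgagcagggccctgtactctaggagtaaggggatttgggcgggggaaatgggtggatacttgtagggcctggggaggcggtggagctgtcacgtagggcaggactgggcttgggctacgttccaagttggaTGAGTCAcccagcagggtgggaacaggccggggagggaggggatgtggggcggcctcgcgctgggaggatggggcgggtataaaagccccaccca

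TGANTCA was found on either strand in 7.26% of windows of genes that fell, 3.96% of those that rose, 5% of those of all tested genes and 7.81% of all windows. Of 16 immediate early genes, which include those FOS and JUN genes, 8 fell and none rose (median -0.36), 5 with the length trend removed and 2 without Parental library 1. Fosl2 went from 2.94, 3.1 and 3.18 to 2.07, 1.67 and 1.78 TPM (-0.79 ± 0.12), and Jund from 69.83, 63.8 and 71.54 to 50.73, 55.77 and 57.35 TPM (-0.37 ± 0.06). Fos (-0.37 ± 0.20, adjusted p = 0.29) and Egr1 (-0.10 ± 0.09, adjusted p = 0.55) were not called.

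**Figure D2:**
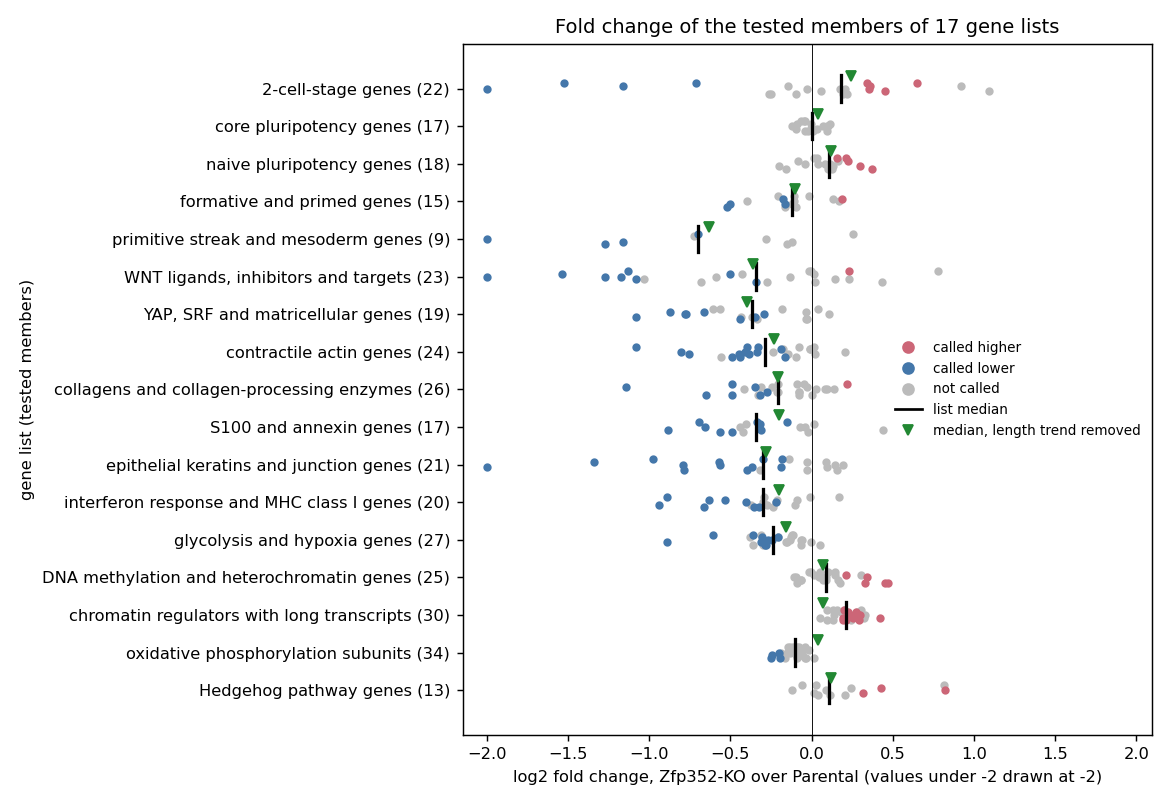
Log2 fold change of each tested member of 17 gene lists, with called rises in red, called falls in blue and other members in grey, values under -2 drawn at -2, the list median as a black line and the median with the length trend removed as a green triangle. The contractile, S100 and epithelial lists hold 13, 9 and 12 falls and no rise, and the median of the long chromatin regulators moves from 0.21 to 0.07 when the trend is removed. Over all tested genes, 3.43% rose and 3.64% fell.

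Without Parental library 2 and Zfp352-KO library 1, the libraries of the steepest length trend, fewer members of most lists passed the test. Fewer libraries of both genotypes were in that fit. In that fit 9 contractile genes, 6 YAP, SRF and matricellular genes, 6 S100 and annexin genes, 6 epithelial genes, 5 collagen genes, 5 interferon genes, 6 WNT genes and 3 streak genes fell, and none of these lists had a rise. Of the 2-cell-stage genes 6 rose and 4 fell, of the naive genes 3 rose, and no gene of the BMP and NODAL, FGF and ERK, long chromatin or oxidative phosphorylation lists was called.

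Secreted growth factors and their binding proteins held some of the clearest falls. Igfbp3, which binds insulin-like growth factors in the extracellular space, went from 46.44, 37.56 and 41.21 to 17.97, 21.86 and 19.52 TPM (-1.12 ± 0.08, adjusted p = 3e-07), and Igfbp4 from 20.48, 18.45 and 19.41 to 12.52, 12.65 and 15.07 TPM (-0.58 ± 0.09). Csf1, the growth factor of macrophages, went from 4.13, 3.48 and 4.28 to 1.87, 1.79 and 2.19 TPM (-1.06 ± 0.14). Tgfb2, a transforming growth factor, went from 2.14, 1.84 and 2.2 to 1.13, 1 and 1.17 TPM (-0.95 ± 0.16). In these genes the edited libraries lay at about the same level and below all Parental ones. Of 28 growth factors and receptors 4 fell and 3 rose, and without Parental library 1 these were 3 and 1.

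Igf2 was the rise left, and its neighbour moved the other way. Igf2, an imprinted fetal growth factor, had 7.13, 7.64 and 6.93 TPM in Parental and 12.83, 10.65 and 12.85 TPM in Zfp352-KO cells (0.70 ± 0.09, adjusted p = 0.00018). H19, the noncoding RNA transcribed from the other parental allele of that locus, had 191.98, 188.08 and 169.51 TPM and 149.85, 138.5 and 149.6 TPM (-0.38 ± 0.06, adjusted p = 0.00077). The tables do not tell alleles apart. Of 26 imprinted genes, 1 rose and 5 fell, with Gnas (-0.25 ± 0.05) and H19 called in every omission, and 2 falls were left without Parental library 1. The Igf2 receptor gene Igf2r (0.13 ± 0.06, adjusted p = 0.18) was not called.

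In BMP and NODAL signalling 7 of 23 genes fell and none rose (median -0.19). With the length trend removed 3 fell, and without Parental library 1 a single gene, the protease gene Bmp1, fell (-0.56 ± 0.11 with all libraries). Id1 and Id3, direct targets of BMP, were 70.13, 60.4 and 72.57 against 59.06, 58.05 and 58.7 TPM and 97.02, 102.59 and 104.31 against 79.38, 91.82 and 89.54 TPM. Both were called (adjusted p = 0.03 and 0.031) and lost the call with the length trend removed (0.23 and 0.14), and in 4 and 5 of 9 omissions. The list of FGF and ERK feedback genes had 2 rises and 3 falls among 16, of which none was left without Parental library 1. In the Hedgehog pathway, 3 of 13 genes rose and none fell, each a known target: Hhip (0.82 ± 0.17), Gli1 (0.32 ± 0.07) and Ptch1 (0.43 ± 0.10). All 3 were called with the length trend removed, and none of the 13 was called higher without Parental library 1.

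Guidance receptors and ligands, which steer axons and cell contacts, had 5 falls and 2 rises among 33. Unc5b, a netrin receptor, went from 15.29, 13.43 and 15.04 to 11.59, 12.59 and 11.8 TPM (-0.33 ± 0.06). Sema6a (-0.55 ± 0.11) and the ephrin receptor gene Epha1 (-0.46 ± 0.09) fell as well, while Epha4 rose from 15.63, 15.2 and 17.88 to 22.96, 23.57 and 19.27 TPM (0.39 ± 0.07). The lowest counts were 3 falls, without Parental library 2, and 1 rise. Without Zfp352/Zfp353-DKO library 3, 6 genes rose.

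Genes of the interferon response and of MHC class I fell in 9 of 20 cases with no rise (median -0.30), in 6 with the length trend removed and in 5 without Parental library 1. Gbp2, a guanylate-binding protein, went from 15.59, 11.78 and 12.59 to 6.81, 7.46 and 7.85 TPM (-0.89 ± 0.12). H2-K1, a class I heavy chain, went from 56.32, 49.96 and 49.82 to 40.65, 39.4 and 41.97 TPM (-0.40 ± 0.07), and the immunoproteasome gene Psmb10 from 50.14, 44.01 and 39.7 to 29.17, 34.76 and 31.16 TPM (-0.54 ± 0.09). Gbp2, Gbp2b and Gbp3 are near copies, so their separate values are uncertain.

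The zinc transporter and metallothionein list had 3 falls and no rise among 20, all kept in every omission. Slc39a8, which imports zinc and manganese, went from 2.18, 1.72 and 2.3 to 0.9, 0.51 and 0.36 TPM (-1.87 ± 0.26, adjusted p = 0.00024). The metallothioneins, small zinc-binding proteins, were among the abundant RNAs: Mt1 went from 788.77, 807.16 and 729.25 to 578.3, 595.98 and 608.2 TPM (-0.43 ± 0.06) and Mt2 from 935.43, 962.08 and 853.36 to 726.02, 738.63 and 764.2 TPM (-0.35 ± 0.06). With the length trend removed, these short transcripts, of 542 and 556 bases, fell by 0.29 and 0.21.

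Glycolysis and hypoxia genes were lower in 10 of 27 cases, none higher (median -0.24), and 4 fell without Parental library 1. Ldha, lactate dehydrogenase, went from 1295.65, 1194.34 and 1162.72 to 970.7, 912.8 and 1046.76 TPM (-0.36 ± 0.06), Slc2a1, a glucose transporter, from 461.14, 445.89 and 436.81 to 386.89, 338.27 and 391.45 TPM (-0.31 ± 0.06), and Slc16a3, a lactate exporter, from 142.73, 130.51 and 130.23 to 95.17, 68.88 and 108.91 TPM (-0.61 ± 0.11). In each, Zfp352-KO library 2 was lowest and library 3 nearest to Parental. With the length trend removed 10 fell and the median was -0.16. Between Zfp352-KO library 3 and Parental library 3 alone, the libraries of the flattest length trend, the list's median difference was 0.00, and without the libraries of the steepest trend 4 members fell.

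Of 17 core pluripotency genes none was called (median 0.00, range -0.12 to 0.11), and 1 rose with the length trend removed. This was Sox2, at 357.46, 346.51 and 351.54 against 414.28, 377.29 and 373 TPM (0.09 ± 0.04, adjusted p = 0.21; with the trend removed 0.14, adjusted p = 0.046). Pou5f1 had 1143.99, 1122.48 and 1221.83 TPM in Parental and 1095.38, 1157.43 and 1130.75 TPM in Zfp352-KO cells (adjusted p = 0.29). Nanog had 403.07, 404.59 and 405.5 against 430.01, 422 and 421.5 TPM (adjusted p = 0.7). Of 18 naive genes 5 rose and none fell (median 0.11), and 7 rose with the length trend removed. Tbx3, a transcription factor of the naive state, went from 28.7, 28.03 and 30.54 to 38.05, 37.74 and 35.23 TPM (0.30 ± 0.05), and Tfcp2l1, another, from 29.36, 29.7 and 34.06 to 44.25, 41.74 and 38.25 TPM (0.37 ± 0.06). Those 2 were the ones left without Parental library 1. Among 15 formative and primed genes, 4 fell and 1 rose, with Pou3f1, a POU factor of primed cells, called in every omission (15.96, 14.07 and 15.34 against 11.14, 11.74 and 9.73 TPM, -0.52 ± 0.08), and without Parental library 1 it was the single fall and nothing rose.

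DNA methylation genes held the firmest rise of an abundant transcript. Dnmt1, the maintenance methyltransferase, went from 100.69, 100.67 and 105.71 to 149.56, 148.29 and 136.11 TPM (0.45 ± 0.04, adjusted p = 4.4e-06; with the length trend removed 0.40, adjusted p = 6.8e-07). Every edited library was above every Parental one by a margin wider than the spread within either group. Tet2, which oxidises methylcytosine, went from 21.36, 19.29 and 25.37 to 36.99, 31.2 and 26.53 TPM (0.47 ± 0.08), with the third library of each genotype nearly level. Uhrf1, the cofactor of Dnmt1 (0.07 ± 0.04, adjusted p = 0.33), and Dnmt3b (-0.01 ± 0.05, adjusted p = 0.9) were not called. Dnmt3a, a de novo methyltransferase, was not called (-0.11 ± 0.05, adjusted p = 0.15) and fell with the length trend removed (-0.24, adjusted p = 0.0095). Of 25 genes of methylation and heterochromatin 5 rose and none fell, with 2 rises without Parental library 1 and 10 without Zfp352/Zfp353-DKO library 3.

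Zinc finger genes with Zfp symbols leaned upward, a list drawn up after values were seen. Of 339 tested, 28 rose (8.26%) and 5 fell (1.47%), with 30 and 1 when the length trend was removed, a median of 0.09, 3 rises without Parental library 1 and 48 without Zfp352-KO library 3. Zfp58 (0.53 ± 0.13), Zfp944 (0.49 ± 0.10), Zfp942 (0.49 ± 0.13) and Zfp945 (0.46 ± 0.10) were the largest among the named genes, each called with the length trend removed. None of the 4 was called without Parental library 1. In 3 clusters of such genes, also chosen after values were seen, 9 of 36 tested genes rose on chromosome 4 (145212368 to 148166420), 5 of 25 on chromosome 17 (20945454 to 23006659) and 8 of 25 on chromosome 2 (175057954 to 178078425), and none fell. Over all tested genes, 3.43% rose. Many of the cluster genes are near copies that share reads.

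Other rises were few and mostly small. Mcf2, a guanine nucleotide exchange factor, went from 2.9, 3 and 3.57 to 4.76, 5.22 and 5.77 TPM (0.69 ± 0.11), and Txlnb, taxilin beta, from 1.87, 1.54 and 2.16 to 3.57, 2.65 and 3.22 TPM (0.71 ± 0.13). Bmi1, a Polycomb gene, went from 1.63, 2.28 and 2.43 to 3.93, 3.14 and 3.34 TPM (0.67 ± 0.15), and was not called when Parental library 1 (adjusted p = 0.11) or Zfp352-KO library 1 (0.074) was omitted. Enpp3, an ectonucleotidase, went from 40.42, 43.56 and 42.03 to 59.29, 60.04 and 51.97 TPM (0.40 ± 0.06), Slc25a36, a mitochondrial nucleotide carrier, from 58.05, 53.95 and 64.83 to 95.83, 78.97 and 76 TPM (0.46 ± 0.07), and Cobl, an actin nucleator, from 7.44, 7.61 and 8.57 to 12.72, 11.1 and 10.61 TPM (0.50 ± 0.07). In these last 3 the groups did not overlap, and the calls held in every omission. Over all 14300 genes tested, 1857 were higher in Zfp352-KO cells without overlap in CPM, so lack of overlap alone was common.

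Many of the small changes went with the length of the transcript. RSEM writes there the mean transcript length of a gene, weighted by its isoforms. Across the 14300 tested genes, Spearman's rank correlation of the log2 fold change with length was 0.378, with genomic span 0.284 (14270 genes) and with mean log2 CPM 0.162. These run across genes of the same 6 libraries, which are not independent replicates. Genes that rose had a median length of 5680 bases and genes that fell of 1874 bases, against 2802 bases for all tested genes. With the trend removed, the medians of called genes were 3448 and 2634 bases and the rank correlation was 0.0168.

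The trend was built up by some libraries of each genotype. For the deviation of a library's log2 CPM from the average over the 6, the rank correlation with length was -0.302, -0.408 and -0.0361 in Parental and 0.401, 0.233 and 0.00483 in Zfp352-KO libraries 1 to 3. So the third library of each genotype was nearly flat, and the difference between those alone had a rank correlation of 0.0257. Leaving out any 1 of the 6 libraries kept the rank correlation between 0.303 and 0.407. Length trend and genotype are partly confounded in 4 of the 6 libraries, and there they cannot be told apart.

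**Figure D3:**
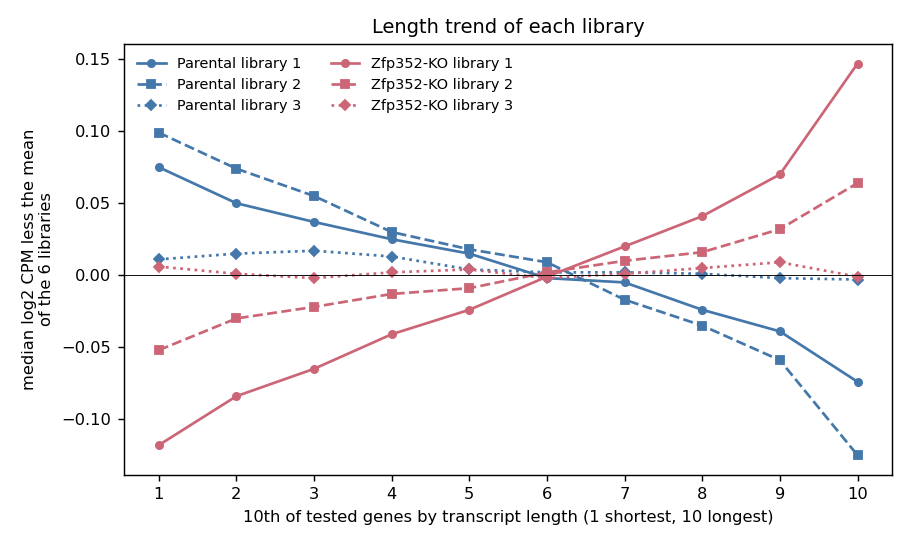
Median deviation of each library's log2 CPM from the average over the 6 libraries, for each 10th of tested genes by transcript length, Parental in blue and Zfp352-KO in red, with solid, dashed and dotted lines for libraries 1, 2 and 3. Parental libraries 1 and 2 slope down to -0.074 and -0.125 in the longest 10th, Zfp352-KO libraries 1 and 2 slope up to 0.147 and 0.064, and the dotted lines stay near 0.

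Calls followed length closely. In the shortest 10th of genes (82 to 1136 bases) the median fold change was -0.11, and 6 genes rose (0.42%) and 105 fell (7.34%). In the longest 10th (6050 to 83437 bases) it was 0.14, and 224 rose (15.7%) and 19 fell (1.33%). With the trend removed the medians were 0.01 and 0.03, and the calls were 27 and 37 in the shortest and 63 and 46 in the longest 10th. The longest 10th thus held 224 of 490 rises before the removal and 63 of 449 after it.

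**Figure D4:**
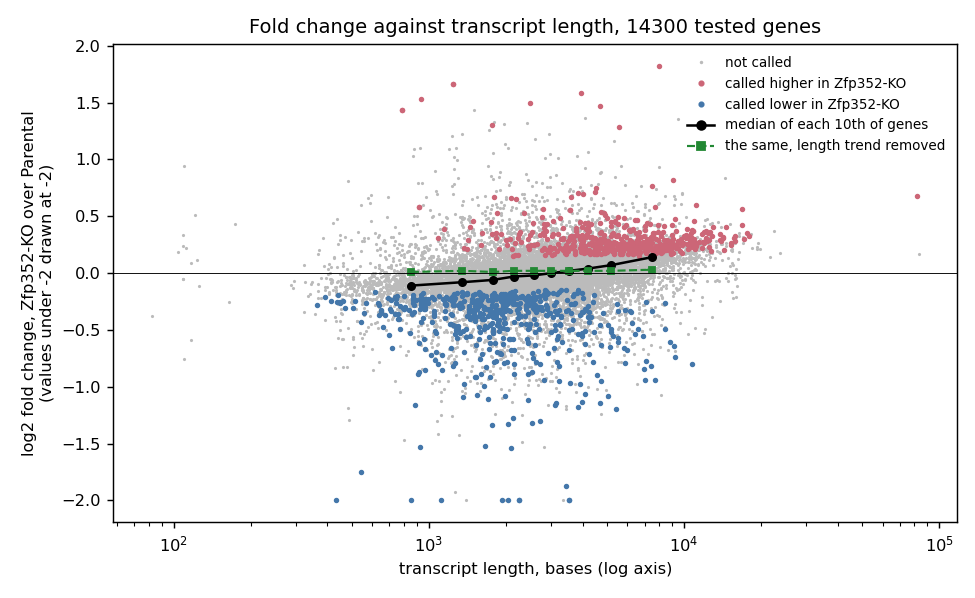
Log2 fold change of each tested gene against transcript length on a log axis, with called rises in red, called falls in blue and other genes in grey. The black line joins the medians of 10 equal groups and climbs from -0.11 to 0.14, and the green line, with the length trend removed, stays between 0.01 and 0.03.

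**Figure D5:**
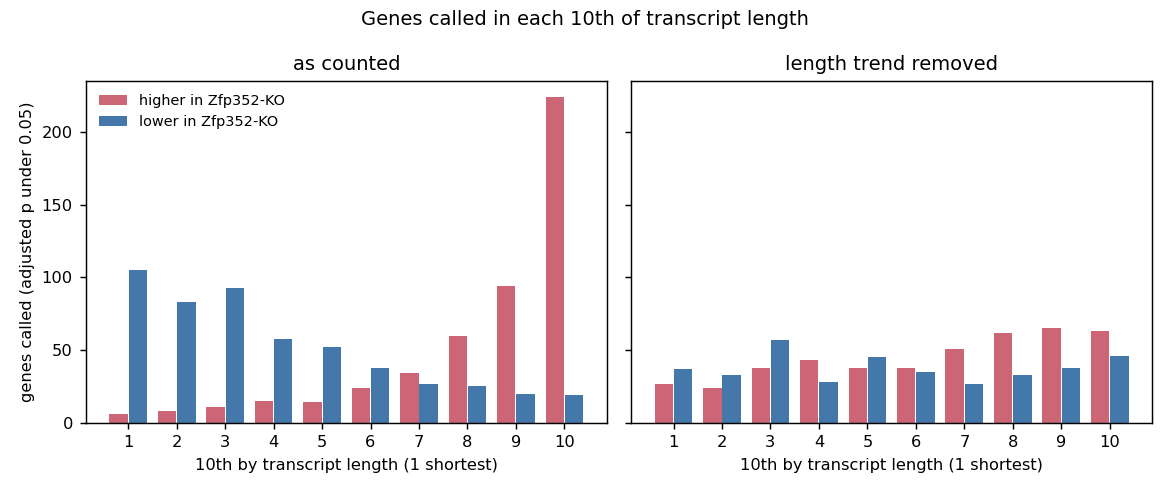
Number of genes called in each 10th of transcript length, from the counts as they are (left) and with the length trend removed in each library (right), rises in red and falls in blue. On the left the longest 10th holds 224 rises and 19 falls, and on the right 63 and 46.

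Gene lists of unusual length show what this means for a pathway. The 30 chromatin regulators with long transcripts (median 9050 bases), such as histone methyltransferases and chromodomain helicases, had 12 rises and no fall (median 0.21). With the trend removed 3 rose (median 0.07), and the count was 0 without Parental library 1 and 25 without Zfp352-KO library 3. Between the third libraries alone the median difference was -0.03. Bptf, a nucleosome remodelling subunit of 11488 bases, had 61.88, 55.74 and 68.75 TPM in Parental and 87.07, 79.41 and 66.37 TPM in Zfp352-KO cells (0.27 ± 0.07, adjusted p = 0.03), and with the trend removed its value was 0.10 (adjusted p = 0.12). At the other end, 34 oxidative phosphorylation subunits (median 539 bases) had 4 falls and no rise (median -0.10), against no fall and 1 rise (median 0.04) with the trend removed. Atp5e, a subunit of ATP synthase, had 207.54, 212.58 and 222.65 against 166.33, 192.37 and 197.31 TPM (-0.25 ± 0.07, adjusted p = 0.048, and 0.37 with the trend removed).

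Among short transcripts, some falls were far larger than the trend. Rpl26, a ribosomal protein gene of 543 bases, was at 25.22, 41.23 and 40.77 TPM in Parental and at 9.94, 18.31 and 3.93 TPM in Zfp352-KO cells (-1.75 ± 0.28, adjusted p = 0.0011; -1.61 with the trend removed). Its expected counts in all 9 libraries were whole multiples, 1 to 11 times, of 20.36 counts, within 0.00147 of a step, a spacing that counts of single reads would not have. Esp24, a secreted peptide gene of 433 bases, went from 3.47, 2.65 and 3.14 to 0.64, 0.47 and 0.5 TPM (-2.52 ± 0.52, adjusted p = 0.008), with adjusted p of 0.055 without Parental library 1 and 0.051 without Zfp352-KO library 2. Among the longest, Runx1 (0.7, 0.57 and 0.82 against 0.32, 0.43 and 0.36 TPM, -0.94 ± 0.22), a blood transcription factor of 7010 bases, fell against the trend. It was not called on omission of Parental library 1 (adjusted p = 0.079), of Zfp352-KO library 1 (0.081) or of Parental library 3 (0.054).

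The length column also shows whether the isoform mix of a gene moved. Of 12712 genes at a mean of 1 TPM or more, 3528 had a length that differed between any 2 of the 6 libraries, yet only 4 had lengths that differed by at least 10% with no overlap between genotypes. All 4 were longer in Zfp352-KO cells, among them Tmem141 at 889, 857 and 891 against 994, 967 and 950 bases, Trmt61b at 1170, 1207 and 1135 against 1432, 1286 and 1412 bases, and 1300002E11Rik at 1246, 1228 and 1230 against 1268, 1543 and 1559 bases. None of the 4 was called in its fold change. No gene reached a difference of 20%. A change of this column is an estimate from short reads and has no test here. For 12747 genes, the log2 ratio of mean TPM and the fold change from counts differed by 0.0463 in the median, and by more than 0.2 in 12 genes.

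Medians by chromosome stayed near 0. Median fold changes of chromosomes 1 to 19 and X lay between -0.037 and 0.024, and between 0.003 and 0.043 with the length trend removed. On chromosome 3, from Sprr2a1 to Snx27 (92215835 to 94582736), a region chosen after its values were seen, 8 of 16 tested genes fell and none rose. Over all tested genes, 3.64% fell. Sprr2a1 and Sprr2a2, which had the same values as each other, are both in the count of 8, as is S100a11. Between Gm4858 and Tdpoz4 lie S100a10, which fell by 0.34 on the log2 scale, and S100a11 (-0.31 ± 0.06, adjusted p = 0.0071, and 0.085 with the length trend removed). Tchh, next to them, was not called (-0.44 ± 0.23, adjusted p = 0.27). Beyond Tdpoz4, Gm10696 fell, while Tdpoz3 and Gm9125 (-1.25 ± 0.44, adjusted p = 0.085) were not called. Nor were Them4 (-0.16 ± 0.19), Them5 (1.02 ± 0.41), Tdrkh (-0.08 ± 0.13), Mrpl9 (-0.09 ± 0.06) and Snx27 (0.07 ± 0.05).

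The remaining lists held few calls. Of 18 primitive endoderm genes 3 fell (Col4a1, Col4a2 and Sparc), and of 18 trophectoderm genes 4 fell, with Hand1, Krt8 and Krt18 called in every omission. Tex19.1, a germline gene, fell (-0.34 ± 0.06), 1 of 2 falls beside 1 rise among 20 germline and meiosis genes. Nes, the intermediate filament nestin, was 1 of 2 falls beside 2 rises among 13 neural genes. Ccne1, a cyclin of the G1 to S transition, was the fall and 1 gene the rise among 26 replication and mitosis genes. At 3.85% each, these were near the shares of all tested genes, 3.64% lower and 3.43% higher. ATF4 and unfolded protein response genes had 1 fall among 22 (4.55%) and proteasome subunits 1 fall among 26 (3.85%), also near that share. Targets of p53 had 2 rises and 1 fall among 17, and cholesterol and fatty acid synthesis genes 2 falls among 26. With the length trend removed, 6 of these last 26 fell, none of the proteasome subunits was called, and 2 ATF4 genes rose and none fell.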

How the data were processed

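RNA from 9 libraries of mouse embryonic stem cells was sequenced, 3 per genotype, and grouped by the genotype label. RSEM 1.3.3, STAR 2.7.8a, Trim Galore 0.6.6 and the build mm10 are named in the submitters' processing notes. Neither annotation release nor strand setting is given in the sources used here. The authors deposited, per library and gene, RSEM's expected counts, TPM, FPKM and length, per the file headers. The deposited FPKM values were not used.

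Expected counts, of which 9.27% were not whole, were rounded and tested with edgeR 4.0.16 (R 4.3.3; filterByExpr, TMM, quasi-likelihood) with all 9 libraries in 1 fit, so that the 6 residual degrees of freedom include the spread of Zfp352/Zfp353-DKO, at a common biological variation of 4.95%. P-values were Benjamini-Hochberg adjusted over 14300 genes. TPM served for levels. Replicates differed by more than counting noise (chi-square per degree of freedom 2.62 to 5.84), so none was merged. The length trend was removed by a loess curve (span 0.3) of each library's log2 CPM deviation on log2 length, entered as an offset. Alternatives were other scalings and filters, DESeq2 1.42.0, limma 3.58.1 on log2(TPM + 1), a replicate block, the 6 libraries alone and omission of each library. The omission of both libraries of the steepest length trend and an adjusted p of 0.01 were chosen after the data were seen. The fit was tested on simulated data.

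Named genes were Zfp352, the 20 largest called rises and falls without overlap at 2 TPM or more, the 10 largest each way at 50 TPM or more, up to 6 called members per list with members named as not called, the 5 largest changes in the shortest and longest 10th by length, the genes of shifted length, and Pou5f1, Nanog and Sox2. Largest means the largest log2 fold change. The comparison and the gene lists were chosen with earlier results of these data known. Of 24411 symbols, 24318 matched RefSeq's table for GRCm38.p6, the source of coordinates and sequences. Windows were searched and aligned with Biopython 1.88.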

Additional observations from a re-analysis of the deposited data

How the results depend on the processing

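The direction of Zfp352 held in every alternative run. The counts of calls did not. Against 490 rises and 520 falls, of which 11 and 33 were of at least 1 on the log2 scale, no filter on low counts gave 843 rises, with 21 and 57 of at least 1, a minimum of 1 CPM left 1 rise of at least 1, and the 6 libraries fitted alone gave 759 rises. DESeq2 left 1 and 15 changes of at least 1. The limma fit on log2(TPM + 1) gave 122 rises and 237 falls, with 1 and 13 of at least 1. Without Parental library 2 and Zfp352-KO library 1, an alternative added after seeing the data, 41 rises and 148 falls were left, with 4 rises of at least 1. At an adjusted p of 0.01, also added, these were 73 and 184, with 1 rise of at least 1. Omitting each library in turn gave 50 to 838 rises and 160 to 714 falls, 1 to 15 and 22 to 46 of at least 1, Zfp352 between -2.96 and -2.39, a rank correlation of fold change with length of 0.303 to 0.407, and medians of 0.10 to 0.18 in the longest and -0.14 to -0.09 in the shortest 10th. Removing the length trend, by its construction, took that correlation to 0.0168 and these medians to 0.03 and 0.01. Of the 4 genes of shifted length, 2 were at 5 TPM or more, and 0 shifted by 20%. Directions turned for Pou5f1 (0.01 with the length trend removed and with the replicate block and length removed), 1300002E11Rik (-0.08 by limma on TPM) and Trmt61b (0.07 without Parental library 1, and -0.31 to 0.07 over all omissions). With the length trend removed they also turned for Vcl (-0.01), Igf2r (0.00), Dppa5a (0.04), Zfp42 (0.04), Utf1 (0.105) and Tdgf1 (0.002). Over the omissions the values of Utf1 (-0.04 to 0.08), Zfp42 (-0.07 to 0.01), Dnmt3b (-0.06 to 0.05) and Krt7 (-0.01 to 0.19) took both signs. None of these genes was called. Apart from the length removal, the cause of these moves was not tested.

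Libraries of the same number shared only the number: their deviations correlated at 0.0120, 0.0740 and -0.0462, within the range of all 9 pairs (-0.0914 to 0.0779). With a replicate block 232 genes rose and 337 fell, with 4 rises of at least 1, and with the replicate block and length removal 316 and 308, with 6. Of 186 named genes that were called, 97 were called in all 9 omissions, 163 with the length trend removed, 160 with the replicate block and 155 by DESeq2, which gave no adjusted p for 9. Depth limits the low genes: Tdpoz2 and Tdpoz5 had too few counts to pass the filter and were not tested.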
